A study of Homo sapiens with 8 samples.

Results

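Untreated CAL-62 cells were compared with untreated BCPAP cells across 10698 genes, those listed in the deposited tables of both lines. Of 12715 genes listed in either table, 1202 were listed for BCPAP alone and 815 for CAL-62 alone. BCPAP and CAL-62 are established human thyroid carcinoma lines. The labels call both anaplastic, whereas BCPAP is generally described as a line from a papillary carcinoma that carries a BRAF mutation, and CAL-62 as a line from an anaplastic carcinoma. Each group held 2 libraries of cells that received the vehicle DMSO. BCPAP was grown in RPMI 1640 with 10% fetal bovine serum and penicillin and streptomycin, and CAL-62 in DMEM with 20% fetal bovine serum. Line and medium therefore cannot be told apart in any difference below. The series also holds 4 libraries of the same lines treated for 6 h with 100 nM THZ1, an inhibitor of the transcription kinase CDK7. They entered the common rescaling, the estimate of the spread, the replicate block and 1 check of direction. The labels do not say that replicates came from separate cultures, and the p-values measure no more than the spread among the libraries at hand, possibly a technical one.

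Thyroid follicular cells are epithelial cells whose identity is set by the transcription factors PAX8, NKX2-1, FOXE1 and HHEX, which together drive the genes of hormone synthesis. Papillary carcinomas usually keep part of that program and signal through BRAF and the MAP kinase cascade. Anaplastic carcinomas have lost most of it, often with a gain of mesenchymal features. Lines of both kinds drift in culture and carry gains and losses of whole chromosome arms.

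Transcripts were measured by RNA sequencing after oligo(dT) selection, and the deposited values are of the RPKM type, that is, reads per gene scaled to gene length and library size. The 4 DMSO libraries held between 18073409 and 19084053 reads in the 10698 genes, and the median gene had 676 to 809 of them. Values below are these RPKM-type values after 1 common rescaling of all libraries, given for replicate 1 and then replicate 2. Differences are CAL-62 minus BCPAP in log2(value + 1), where 1 unit is 2-fold, with the standard error (SE) and the Benjamini-Hochberg adjusted p of limma over all 10698 genes. Genes with an adjusted p under 0.05 are referred to as called. The scale understates the difference of genes with values near 1.

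The lines differed in a large share of their shared genes. The test called 1598 genes (14.9%), of which 736 (6.88%) were higher in CAL-62 and 862 (8.06%) were lower. At least 2-fold differences made up 514 of the higher (4.8% of all genes) and 671 of the lower calls (6.27%), and at least 8-fold differences 27 and 41. The median difference over all genes was 0.02. In 7117 genes (66.5%) the libraries of one line did not overlap those of the other. Of the 1598 called genes 1567 differed in the same direction between the THZ1 libraries of the lines, which are not independent of the fit, and 31 in the opposite direction. Libraries of 1 line correlated at 0.967 (BCPAP) and 0.959 (CAL-62) in log2 values across genes, and libraries of different lines at 0.861 to 0.889.

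The counts varied with the libraries used, with the scaling between the lines and with the handling of replicate numbers. Without BCPAP replicate 1 or 2, 324 and 275 genes were called, and without CAL-62 replicate 1 or 2, 450 and 312. Counts after leaving out a library are given below in this order. With the replicate number as a block, 3851 genes were called over the 8 libraries and 4695 over the 4 DMSO libraries, although the labels do not say that a number marks a shared batch. When the ribosomal protein genes were taken as the level reference, the differences moved up, to a median of 0.43, and the calls split into 1153 higher and 270 lower genes (19% lower, against 53.9% in the main scaling). With equal sums of reads the split was 977 higher and 762 lower (43.8% lower) at a median of 0.11.

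The 2 CAL-62 libraries differed widely in single genes, and this touches several groups below. The pair of genes given here was picked for the size of that gap. EGR1, an immediate early transcription factor, had 10.9 and 4.42 in BCPAP and 9.42 and 390.0 in CAL-62. DDIT4, an inhibitor of mTOR signalling that is induced by stress, had 7.51 and 17.1 in BCPAP and 6.16 and 222 in CAL-62. In CAL-62 278 of the 10698 genes were more than 2-fold higher in replicate 2 than in replicate 1 and 125 were lower by as much. In BCPAP the corresponding numbers were 188 and 94. Neither gene was called, at differences of 2.99 and 1.69.

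The largest differences above BCPAP were led by a cytoskeletal gene. TPM2, a tropomyosin of actin filaments, had 7.57 and 7.75 in BCPAP and 384 and 357 in CAL-62, a difference of 5.42 (SE 0.19, adjusted p = 1.38e-05). STMN3, a neuronal relative of the microtubule protein stathmin, had 0.555 and 2.4 in BCPAP and 90.2 and 93.5 in CAL-62, and IL32, a proinflammatory cytokine, had 2.1 and 2.93 in BCPAP and 108 and 94.9 in CAL-62. In these genes the replicates of a line lay close together on the scale of the gap between the lines. The other 7 largest differences above BCPAP ran from 4.50 down to 3.75. They belonged to CENPV (a centromere-associated protein), HTRA1 (a secreted serine protease), ADM (adrenomedullin, a vasodilator peptide), SOX7 (an endoderm and vascular transcription factor), SLC6A8 (the creatine transporter), MT1G (a metallothionein) and UCA1 (a long noncoding RNA first described in bladder cancer).

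Among genes lower in CAL-62 the matrix led. TGFBI, a secreted matrix protein induced by TGF-β that binds integrins and collagens, had 1878 and 1526 in BCPAP and 3.83 and 4.57 in CAL-62, a difference of -8.35 (SE 0.21, adjusted p = 2.15e-06). It was an abundant transcript in both BCPAP libraries and close to the lower end of the table in both CAL-62 libraries. BASP1, a membrane protein of growth cones, had 190.0 and 211 in BCPAP and 3.8 and 1.57 in CAL-62. PLAT, tissue plasminogen activator, had 200.4 and 261 in BCPAP and 2.79 and 4.57 in CAL-62. THBS1 (thrombospondin 1), LOX (lysyl oxidase, which crosslinks collagen), CKB (brain creatine kinase), SPOCK1 (a matrix proteoglycan), LIMA1 (an actin crosslinker) and ARHGDIB (a regulator of small GTPases) followed, at -5.09 to -4.08.

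**Figure D1:**
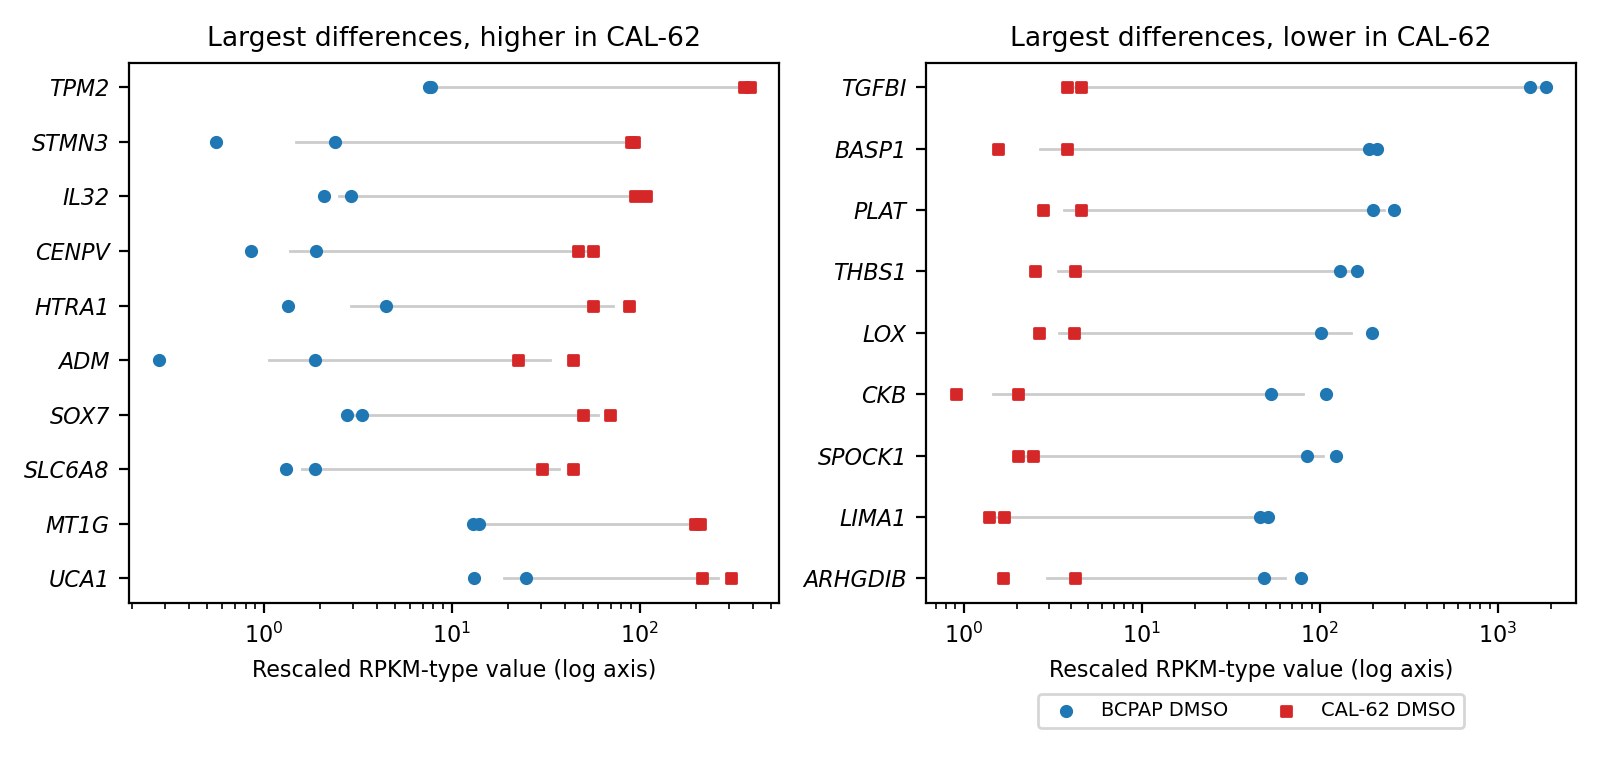
Rescaled RPKM-type values (log axis) of the largest called differences in each direction, 10 higher and 9 lower in CAL-62, with BCPAP DMSO libraries as circles, CAL-62 DMSO libraries as squares and a grey line between the group means. Genes were chosen among those whose groups do not overlap, and TGFBI has the widest gap.

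Thyroid markers served as a check of the labels. PAX8, the follicular cell transcription factor, had 56.5 and 83.6 in BCPAP and 90.7 and 119.7 in CAL-62, a difference of 0.59 (SE 0.66, adjusted p = 0.568) that was not called, and its transcript was present in all 4 libraries. HHEX had 10.04 and 12.9 in BCPAP and 22.2 and 54.4 in CAL-62 and was called higher at 1.53, a call that was lost in 9 of 19 other settings. NKX2-1 (30.01 and 51.5) and FOXE1 (10.1 and 14.6), like GLIS3 (6.33 and 3.77), were listed for BCPAP and not for CAL-62. No listed gene had a DMSO mean below 1. A gene that was not listed has no value here, whatever the reason, and it is not counted as absent from the cells. Of 11 genes of hormone synthesis and transport none had a value in both lines, 1 had a value in CAL-62 alone and 10 had none in either. TG (thyroglobulin), SLC5A5 (the iodide transporter) and the receptor TSHR had no value in either line. With MT1G, described below among the metallothioneins, 2 of the 4 tested genes of the list were called higher, at a list median of 1.06, and without BCPAP replicate 1, BCPAP replicate 2 or CAL-62 replicate 2 it was 1. The called share of the list was 50%, against 14.9% of all genes, and rests on HHEX and MT1G alone. Each library pools many cells, so fewer cells with a transcript and less transcript per cell cannot be told apart.

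Most markers of other cell types had no value in either line. This held for 11 of 12 blood cell markers, including PTPRC, CD3E, CD14 and the haemoglobin genes HBB and HBA1. The exception was CD68, a lysosomal membrane protein that carcinoma cells also make, with 49.96 and 58.6 in BCPAP and 16.2 and 13.4 in CAL-62 and a difference of -1.81 (SE 0.21, adjusted p = 0.00269). It also held for 8 of 10 endothelial markers, among them the defining genes PECAM1, CDH5 and VWF. TIE1 was listed for BCPAP (9.68 and 9.57) and ESAM for CAL-62 (1.88 and 1.9). It held for 6 of 9 fibroblast markers, including PDGFRA, DCN and LUM. The collagen chain COL1A1 was higher in CAL-62, at 39.6 and 31.6 against 6.02 and 6.61. The other 2 fibroblast markers, THY1 among them, were listed for BCPAP and not for CAL-62.

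Epithelial genes were called in both directions. Of 42 genes on the list 17 were listed for both lines, 3 for CAL-62 alone and 2 for BCPAP alone. Of the 17 genes 3 were called higher and 2 lower, 29.4% against 14.9% of all genes. Their median was -0.25, a sign that turned to 0.17 with ribosomal protein scaling. SPINT2, an inhibitor of membrane-bound serine proteases, had 7.72 and 18.2 in BCPAP and 80.8 and 108 in CAL-62. The tight junction gene CLDN3 was also higher in CAL-62 (1.79). KLF5, a transcription factor of epithelial growth, had 21.7 and 26 in BCPAP and 2.89 and 5.03 in CAL-62, and DSG2, a desmosomal cadherin, was lower at -1.63. EPCAM, the epithelial adhesion molecule, was listed for CAL-62 (13 and 13.7) and not for BCPAP, as was the splicing regulator ESRP2 (12.4 and 12.5). CDH1, which encodes E-cadherin, had no value in either line, nor had OCLN, GRHL2, OVOL1 or ESRP1. With 1 DMSO library left out, 2, 4, 3 and 2 of the 17 genes were called.

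Both lines carried abundant simple keratins, the intermediate filament proteins of glandular epithelium. KRT8 had 269 and 363 in BCPAP and 409.5 and 453 in CAL-62, KRT18 had 191 and 249 in BCPAP and 393 and 377 in CAL-62 and KRT7 had 759 and 988 in BCPAP and 462 and 782 in CAL-62, and none of the 3 was called. Keratin linkers were lower in CAL-62. EVPL, the desmosomal plakin envoplakin, had 61.6 and 66.8 in BCPAP and 5.16 and 4.42 in CAL-62 (difference -3.50, SE 0.28, adjusted p = 0.00068), and PLEC, the filament crosslinker plectin, had 61.1 and 59.2 in BCPAP and 16.4 and 16.8 in CAL-62 (difference -1.80, SE 0.20, adjusted p = 0.00236). The third linker, DST, was called at -1.10, and KRT80 was lower at -3.40. These were the 4 called genes among the 7 tested keratins and plakins, 57.1% against 14.9% of all genes. KRT14, a keratin of basal stratified epithelium, was listed for BCPAP (95.3 and 175), and KRT19, a simple keratin, for CAL-62 (75.5 and 98.8). With each DMSO library left out, 3 of the 7 tested genes were called.

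Mesenchymal genes were for the most part higher in BCPAP. Of 23 tested genes 14 were lower and 5 higher in CAL-62, a called share of 82.6% against 14.9% of all genes, with a median of -1.68. A further 9 of the 41 genes on the list had a value in BCPAP and none in CAL-62, and 0 the other way round. Over all genes these numbers were 1202 and 815. FN1, fibronectin, had 2456 and 2059 in BCPAP and 172 and 312 in CAL-62 (-3.27). VIM, the mesenchymal filament vimentin, had 2135 and 1822 in BCPAP and 743 and 506 in CAL-62, a difference of -1.68 (SE 0.32, adjusted p = 0.0138) that was lost with ribosomal protein scaling and without 3 of the 4 DMSO libraries. FBN1 (fibrillin, -4.06), SPARC (a collagen-binding matrix protein, -3.42), COL6A1 (-2.77), LOXL2 (-2.32), CDH2 (N-cadherin, -1.71) and the hyaluronan receptor CD44 (-1.36) were lower as well. Genes for matrix and secreted proteins were 9 of the 14.

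Transcription factors of the mesenchymal program split between the lines. SNAI2, a repressor of E-cadherin, had 23.9 and 12.7 in BCPAP and 1.92 and 5.58 in CAL-62, and FOXC2 had 24.1 and 37 in BCPAP and 2.03 and 5.3 in CAL-62, both lower in CAL-62. TWIST2 (3.28 and 4.73 in BCPAP and 18.3 and 24.3 in CAL-62), FOXC1 (3.19 and 2.29 in BCPAP and 9.23 and 17.7 in CAL-62) and TWIST1 (5.11 and 5.55 in BCPAP and 10.3 and 16.3 in CAL-62) were higher. ZEB1, ZEB2 and SNAI1 were not called, at -0.62, -0.31 and 0.83. TAGLN, the contractile protein transgelin, was higher too, at 13.9 and 21.5 in BCPAP and 113 and 162 in CAL-62. The genes with a value in BCPAP and none in CAL-62 included CDH11, a mesenchymal cadherin (64.9 and 56.4), the collagen chains COL5A1 (56.5 and 58.6) and COL6A2 (38.2 and 40.2), and THY1 (23.9 and 32.3). In fits without 1 DMSO library the called mesenchymal genes numbered 11, 10, 13 and 9, of which 9, 8, 10 and 8 were lower.

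Basement membrane genes and integrins, the receptors that bind matrix, were lower in CAL-62 wherever they were called. Of 24 tested genes 12 were lower and 0 higher (0 with limma-voom, 1 at an unadjusted p under 0.05), with a median of -1.23, and 21 of the 24 had a negative difference. The called share was 50%, against 14.9% of all genes. COL7A1, the anchoring fibril collagen, had 20.5 and 18.4 in BCPAP and 1.75 and 1.58 in CAL-62, LAMA4, a laminin chain of vessels and muscle, had 16.1 and 24.3 in BCPAP and 1.39 and 2.16 in CAL-62, and COL4A1, a chain of type IV collagen, had 52.8 and 45.5 in BCPAP and 11.4 and 11.5 in CAL-62. Among the integrins ITGA6, a laminin receptor chain, had 92.6 and 103 in BCPAP and 22.3 and 14.7 in CAL-62 and ITGA5, the fibronectin receptor chain, had 109 and 125 in BCPAP and 27.4 and 25.8 in CAL-62. The common chain ITGB1 was not called (285 and 284 in BCPAP and 239 and 192 in CAL-62). COL18A1 (0.40) and ITGA3 (0.19) were among the 3 genes with a positive difference. When 1 DMSO library was left out, 9, 5, 8 and 5 genes were called, all lower.

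The plasminogen system differed between the lines in opposite directions. PLAU, urokinase, was higher in CAL-62 (177 and 199 in BCPAP and 631 and 730.1 in CAL-62, difference 1.85, SE 0.21, adjusted p = 0.00241), whereas PLAT was lower, as given above, and so were the urokinase inhibitor SERPINE2 (106 and 104 in BCPAP and 8.78 and 7.58 in CAL-62) and the membrane protease ADAM9 (-0.89). The urokinase receptor PLAUR was not called, at -0.15. CST6, an inhibitor of cathepsins, was higher (1.31 and 5.41 in BCPAP and 20.1 and 25.5 in CAL-62). MMP1, interstitial collagenase, was listed for BCPAP at 1875 and 1236 and not for CAL-62, while MMP14, a membrane-bound matrix protease, was not called (81.5 and 86.8 in BCPAP and 49.9 and 54.9 in CAL-62). Of the 18 tested proteases and inhibitors 2 were higher and 3 lower, 27.8% called against 14.9% of all genes, with a median of -0.63. A further 11 were listed for BCPAP alone and 1 for CAL-62 alone, against 1202 and 815 over all genes. On leaving out 1 DMSO library, 3, 4, 3 and 3 genes were called.

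Of 41 tested genes that are mutated in thyroid carcinoma 1 was higher and 3 were lower, 9.76% against 14.9% of all genes, and their median was 0.00. With ribosomal protein scaling 3 were higher and 0 lower. BRAF had 2.94 and 2.82 in BCPAP and 4.77 and 4.73 in CAL-62 (difference 0.57, SE 0.22, adjusted p = 0.116) and was not called. NRAS (-0.55) and RB1 (-0.16) were not called either. TERT, the catalytic subunit of telomerase, was listed for BCPAP (2.75 and 4.04) and not for CAL-62. RNA levels do not show whether an allele is mutated.

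NF2, the tumour suppressor merlin of the Hippo pathway, was lower in CAL-62. Its values were 13.8 and 11.6 in BCPAP and 3.53 and 3.69 in CAL-62, a difference of -1.57 (SE 0.25, adjusted p = 0.00844). NF2 lies on chromosome 22, where the median of the tested genes was 0.58 in the other direction. SMARCB1, a chromatin remodelling subunit on the same chromosome, was higher at 1.10. CTNNB1, β-catenin, was lower (96.2 and 98.3 in BCPAP and 55.3 and 52.9 in CAL-62, -0.83), as was TSC2, a repressor of mTOR (-0.75). NF2, SMARCB1, CTNNB1 and TSC2 each lost the call whichever of the 4 DMSO libraries was left out.

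CDKN2A, which encodes the cell cycle inhibitors p16 and ARF, was listed for BCPAP (14.4 and 27.2) and not for CAL-62. Its neighbours in RefSeq gene order were looked up after that was seen. MTAP, a methionine salvage enzyme next to it, was listed for BCPAP at 17 and 14.2 and CDKN2B at 1.97 and 2.87, and neither was in the CAL-62 table. The nearest gene listed for both lines on one side, KLHL9, had 6.28 and 5.75 in BCPAP and 15 and 13.3 in CAL-62, and on the other, TUSC1, had 3.61 and 4.36 in BCPAP and 11.9 and 24 in CAL-62. IFNE (3.16 and 1.11) and ELAVL2 (5.58 and 7.5), which lie between those flanks, were in the CAL-62 table and had no BCPAP value. KLHL9 (1.11) and TUSC1 (1.86) were both called higher, on a chromosome with a median of 0.56. Further out MLLT3 was listed for BCPAP (1.73 and 2.26) and not for CAL-62. Genomic DNA was not analysed here.

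Output of the MAP kinase cascade, the set of genes switched on by ERK, was called in both directions. Of 26 tested genes 2 were higher and 2 lower (15.4% against 14.9% of all genes), with a median of 0.10. DUSP4, an ERK phosphatase, had 17.1 and 10.9 in BCPAP and 2.24 and 1.87 in CAL-62 (difference -2.26, SE 0.40, adjusted p = 0.0114), and HMGA2, a chromatin protein, was lower at -1.25. The other feedback inhibitors, DUSP6 (38.6 and 23.6 in BCPAP and 18.9 and 44.1 in CAL-62) and SPRY4 (16.7 and 11.9 in BCPAP and 16.4 and 23.4 in CAL-62) among them, were not called. UPP1, uridine phosphorylase, had 6.16 and 4.28 in BCPAP and 32.8 and 82.7 in CAL-62 and the ETS factor ETV5 had 19.7 and 20.6 in BCPAP and 36.4 and 40.9 in CAL-62, both higher. In 10 of the 26 genes CAL-62 replicate 2 was more than 2-fold above replicate 1, and the median against the BCPAP mean was -0.18 in CAL-62 replicate 1 and 0.52 in replicate 2. With 1 DMSO library left out, 1, 2, 4 and 2 genes were called.

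Among receptor tyrosine kinases and their growth factors 5 of 25 tested genes were called, 20% against 14.9% of all genes. Of 11 tested ligands 3 were lower and 1 was higher, and of 14 receptors 1 was higher and 0 lower. VEGFC, the lymphatic growth factor, had 60.4 and 45.3 in BCPAP and 2.04 and 6.5 in CAL-62, PDGFC had 30.7 and 29.9 in BCPAP and 7.11 and 8.14 in CAL-62 and FGF5 had 25.2 and 20.8 in BCPAP and 10.1 and 9.83 in CAL-62, and TGFA, a ligand of the EGF receptor, was higher at 6.85 and 5.6 in BCPAP and 21.7 and 12.5 in CAL-62. EGFR itself (32.2 and 24.9 in BCPAP and 32.4 and 33.1 in CAL-62), MET (65.4 and 52 in BCPAP and 53 and 29.97 in CAL-62) and AXL (205 and 276 in BCPAP and 168 and 112 in CAL-62) were not called. The called receptor, MERTK, was low in both lines (1.22 and 1.13 in BCPAP and 2.45 and 2.92 in CAL-62). All 3 lower ligands lie on chromosome 4, whose median was -0.31. In fits without 1 DMSO library, 1, 2, 2 and 3 of these 25 genes were called, all lower.

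Targets of YAP and TEAD, the transcription factors held back by the Hippo pathway, gave more lower than higher calls. Of 22 tested targets 6 were lower and 1 was higher, while the prototypic targets CYR61 (354 and 657 in BCPAP and 211 and 619 in CAL-62), CTGF (175 and 116 in BCPAP and 82.2 and 180.1 in CAL-62) and ANKRD1 (-0.48) were not called. FSTL3, an inhibitor of activins, had 49.8 and 57 in BCPAP and 2.13 and 3.6 in CAL-62 (difference -3.84, SE 0.25, adjusted p = 0.000351). F3, tissue factor, had 197 and 194 in BCPAP and 20.2 and 42.5 in CAL-62, and FSTL1 had 88.2 and 92.4 in BCPAP and 28.1 and 30.7 in CAL-62. ASAP1, a GTPase-activating protein of focal adhesions on chromosome 8 (median 0.43), was the higher target, at 22.1 and 20.1 in BCPAP and 67.2 and 65.3 in CAL-62. In the pathway itself TEAD2 was higher (5.74 and 5.84 in BCPAP and 21.1 and 24.8 in CAL-62) and YAP1 was not called (31.5 and 41.3 in BCPAP and 26.1 and 26.8 in CAL-62). Over targets and pathway together 9 of 33 genes were called, 27.3% against 14.9% of all genes. The median over all 33 genes was -0.21 and turned to 0.24 with ribosomal protein scaling. When 1 DMSO library was left out, 4, 3, 3 and 3 genes were called.

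TGF-β and BMP genes were called lower or not at all. Of 21 tested genes 5 were lower and 0 higher (0 with limma-voom, 1 at an unadjusted p under 0.05), with a median of -0.60. That is 23.8% called, against 14.9% of all genes. Besides TGFBI and FSTL3 the lower genes were FST, the activin inhibitor follistatin (6.92 and 5.79 in BCPAP and 0.505 and 2.83 in CAL-62), SMAD7, a feedback inhibitor of TGF-β (13.9 and 9.002 in BCPAP and 2.78 and 4.63 in CAL-62), and TGFBR2, the type II receptor (29.7 and 22.5 in BCPAP and 10.7 and 10.3 in CAL-62). TGFB1, the ligand (69.6 and 88.4 in BCPAP and 85.4 and 92.8 in CAL-62), and the BMP targets ID1 (0.44) and ID3 (-0.10) were not called. A further 7 genes of the list, including BMP2 and ID2, were listed for BCPAP alone and 0 for CAL-62 alone, against 1202 and 815 over all genes. On leaving out 1 DMSO library, 2, 2, 2 and 4 genes were called, all lower.

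Of 25 tested NF-κB and cytokine genes 4 were higher and 1 was lower, 20% called against 14.9% of all genes. Apart from IL32 the higher genes were ICAM1, a leukocyte adhesion molecule (9.78 and 9.32 in BCPAP and 30.6 and 55.5 in CAL-62), BIRC3, an inhibitor of apoptosis (1.91 and 1.83 in BCPAP and 9.27 and 9.04 in CAL-62), and the chemokine CXCL16 (1.08 and 1.03 in BCPAP and 3.25 and 4.19 in CAL-62). The kinase IKBKE was lower (-1.23). The chemokine IL8 (80.4 and 36 in BCPAP and 3.22 and 36.2 in CAL-62) and the cytokine LIF (22 and 15.4 in BCPAP and 37.8 and 219 in CAL-62) were not called. In 11 of the 25 genes CAL-62 replicate 2 was more than 2-fold above replicate 1, and no gene of the list showed the reverse. The list median was 0.07 and moved to 0.40 in replicate 2 alone and to -0.35 in replicate 1. With 1 DMSO library left out, 2, 2, 4 and 4 genes were called.

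Interferon-stimulated genes, which interferon signalling switches on through STAT and IRF factors, were lower in CAL-62. Of 32 tested genes 8 were lower and 0 higher (0 with limma-voom, 1 with ribosomal protein scaling, 1 at an unadjusted p under 0.05), with a median of -0.85 and 25 negative differences. The called share was 25%, against 14.9% of all genes. A further 13 of the 47 genes on the list had a value in BCPAP and none in CAL-62, against 0 the other way round. Over all genes 1202 had a value in BCPAP alone and 815 in CAL-62 alone. IFI44, an antiviral microtubule-associated protein, had 75.5 and 47.9 in BCPAP and 1.63 and 8.45 in CAL-62 (difference -3.62, SE 0.64, adjusted p = 0.0115). IFI6, an inhibitor of cell death, had 45.9 and 63.6 in BCPAP and 3.75 and 9.62 in CAL-62, and the RNA-binding antiviral protein IFIT3 had 24 and 17.8 in BCPAP and 1.2 and 6.22 in CAL-62. GBP1, OAS3 and HERC6 were lower too, at -1.55, -1.43 and -1.31. Of the regulators IRF9 was lower (21.3 and 24.8 in BCPAP and 4.56 and 12 in CAL-62), and STAT2, IRF1 and IRF7 were not called, at -0.77, -0.21 and 0.57.

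In 11 of these 32 genes CAL-62 replicate 2 was more than 2-fold above replicate 1. ISG15, a ubiquitin-like modifier, shows the spread, at 51.9 and 56.7 in BCPAP and 8.5 and 37.1 in CAL-62, and was not called. The list median against the BCPAP mean was -0.93 in CAL-62 replicate 1 and -0.55 in replicate 2. In fits without 1 DMSO library, 2, 2, 3 and 6 genes were called, of which 2, 2, 2 and 6 were lower. IFI27 (66.8 and 144), MX2 (12.8 and 9.31) and OAS1 (6.74 and 8.86) were the best known of the genes listed for BCPAP alone.

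The promoter of IFI44 is shown because it led this group and its window held the motif sought. The stretch is the 250 bases before the RefSeq start of transcription on GRCh38.p14, plus strand, chr1:78649539-78649788, printed 5′ to 3′ with capitals for the match to the core of the interferon-stimulated response element. That core is GAAA, any 2 bases and GAAA again, and it lies here on the opposite strand, where it reads TTTC, 2 bases and TTTC.
IFI44: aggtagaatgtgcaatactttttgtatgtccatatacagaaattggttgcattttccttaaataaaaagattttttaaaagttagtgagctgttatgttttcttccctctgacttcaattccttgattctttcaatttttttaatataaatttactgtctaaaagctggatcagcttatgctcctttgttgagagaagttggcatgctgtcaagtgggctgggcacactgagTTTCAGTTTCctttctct
The motif, sought on both strands, was in 19 of 34 such windows of the tested interferon genes (55.9%) and in 2.37% of the 10889 windows of all tested genes. A match describes letters and not binding.

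Antigen presentation genes all had negative differences, but few were called. Of 12 tested genes 2 were lower, 16.7% called against 14.9% of all genes, with a median of -0.72. These were ERAP1, which trims peptides (15.1 and 12.5 in BCPAP and 4.11 and 2.34 in CAL-62), and PSME2, a proteasome activator (93.2 and 99.1 in BCPAP and 50.8 and 52.1 in CAL-62). HLA-C (9.33 and 15.7 in BCPAP and 3.95 and 4.57 in CAL-62), whose reads can be split between near-identical genes, and B2M (151 and 175 in BCPAP and 142 and 131 in CAL-62) were not called. HLA-B had a value in BCPAP (1.87 and 2.22) and none in CAL-62. TAP1, TAP2, PSMB8 and the genes of class II presentation had no value in either line. Without CAL-62 replicate 1, 1 gene was called, and without any other DMSO library 0 (2 in the full fit, 3 with limma-voom).

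HOX genes, which record position along the body axis, were mostly listed for 1 line or for neither. Of 39 genes 4 were listed for both lines, 5 for BCPAP alone and 7 for CAL-62 alone. Over all genes 1202 were listed for BCPAP alone and 815 for CAL-62 alone. Of the 4 tested genes 2 were called, 50% against 14.9% of all genes. HOXB9 was higher in CAL-62 (2.85 and 3.83 in BCPAP and 13.9 and 23.4 in CAL-62), HOXB3 was lower (3.25 and 5.74 in BCPAP and 1.07 and 0.969 in CAL-62), and HOXB7 was not called (18.1 and 18.1 in BCPAP and 22.7 and 21.3 in CAL-62). The genes listed for BCPAP lay in the HOXB and HOXD clusters, led by HOXD4 (4.7 and 5.31). Those listed for CAL-62 included 4 of the HOXC cluster, HOXC4, HOXC6, HOXC9 and HOXC10, at values from 1.08 to 2.82, and HOXD13 (3.03 and 3.14). No listed gene had a DMSO mean below 1, so the HOXC values lie near the lower end of the tables.

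Other lineage transcription factors were called in both directions, 3 higher and 4 lower of 22 (31.8% against 14.9% of all genes). FOXP1, a forkhead repressor, had 31.6 and 18.2 in BCPAP and 3.29 and 2.1 in CAL-62 (difference -2.78, SE 0.44, adjusted p = 0.00839). SOX4 (12.2 and 10.7 in BCPAP and 2.14 and 2.99 in CAL-62), SOX9 (14.2 and 12.8 in BCPAP and 3.01 and 6.59 in CAL-62) and GATA3 (5.22 and 3.69 in BCPAP and 0.646 and 1.59 in CAL-62), factors of progenitors and of epithelia, were also lower. GATA2 (1.08 and 1.22 in BCPAP and 3.14 and 6.14 in CAL-62) and MSX1 (2.37 and 2.26 in BCPAP and 4.3 and 7.03 in CAL-62) were higher, and so was the mitotic factor FOXM1 (49.4 and 44.6 in BCPAP and 105 and 85 in CAL-62). FOXL1 was listed for BCPAP at 34 and 63.7, and PAX6 (5.15 and 6.93) and LHX2 (6.66 and 10.8) for CAL-62. When 1 DMSO library was left out, 0, 2, 2 and 2 genes were called.

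Of 19 tested genes of G1 control 2 were called, 10.5% against 14.9% of all genes, 2 higher and 0 lower (0 with limma-voom, 0 at an unadjusted p under 0.05), with a median of 0.46. CCND3, cyclin D3, had 31.6 and 26.6 in BCPAP and 62 and 65.4 in CAL-62 and CCNE2, cyclin E2, had 8.22 and 4.26 in BCPAP and 15.9 and 19.3 in CAL-62, a call lost in 11 of 19 other settings. CCND1, cyclin D1, was abundant in both lines and not called (238 and 167 in BCPAP and 153 and 175 in CAL-62), and the inhibitor CDKN1A, p21, had 11.6 and 13.9 in BCPAP and 15.9 and 23.6 in CAL-62. With any 1 DMSO library left out, 0 of the 19 genes was called.

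Of 42 replication genes 5 were called, 11.9% against 14.9% of all genes, and they are described by function. Of 16 genes for the replicative helicase and its loading 15 had positive differences, with a median of 0.56, and 4 were called higher. They were ORC6 (11.8 and 10.7 in BCPAP and 30.3 and 43.6 in CAL-62), GINS3 (6.53 and 5.23 in BCPAP and 10.9 and 12.4 in CAL-62), MCM2 (53.3 and 49.6 in BCPAP and 101 and 88.5 in CAL-62) and CDC45 (17.1 and 11.7 in BCPAP and 28.3 and 25 in CAL-62). ORC6 and GINS3 lie on chromosome 16, with a median of 0.48. Among 16 polymerase and fork genes the median was -0.17, and PRIM1, the primase, was lower (39.2 and 35.7 in BCPAP and 18.5 and 17.3 in CAL-62). Of 40 mitotic genes 4 were called, 10% against 14.9% of all genes, with a median of -0.24 (0.20 with ribosomal protein scaling). CDC20, the activator of the anaphase-promoting complex (184 and 204 in BCPAP and 102 and 71.5 in CAL-62), KIF2C (-0.88) and TACC3 (-0.79) were lower and FOXM1 was higher. MKI67, the proliferation marker, was not called (69.8 and 61.4 in BCPAP and 111 and 69.3 in CAL-62). On leaving out 1 DMSO library, 1, 0, 1 and 0 S phase genes and 0, 0, 2 and 0 mitotic genes were called.

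Of 28 tested genes of the DNA damage and arrest response 1 was called, 3.57% against 14.9% of all genes. It was PHLDA3, an inhibitor of AKT, at 14.7 and 19.8 in BCPAP and 3.25 and 5.6 in CAL-62. CDKN1A and MDM2 (6.02 and 4.16 in BCPAP and 7.11 and 5.82 in CAL-62), the best known of them, were not called. In the BCL2 family 2 of 15 genes were called, 13.3% against 14.9% of all genes. Both were lower and encode hypoxia-induced mitophagy receptors, BNIP3 (233 and 284 in BCPAP and 30.7 and 24.8 in CAL-62, difference -3.17, SE 0.22, adjusted p = 0.000441) and BNIP3L (43.8 and 59.9 in BCPAP and 13.9 and 14.7 in CAL-62). The survival genes BCL2L1 (81.9 and 118 in BCPAP and 176 and 180.1 in CAL-62) and MCL1 (63.6 and 51.6 in BCPAP and 98.7 and 164 in CAL-62) were not called. PHLDA3 lost its call without each of the 4 DMSO libraries, and BNIP3 and BNIP3L kept theirs.

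Glycolysis and the hypoxia response, the genes that take glucose to lactate and that HIF switches on at low oxygen, were lower in CAL-62. Of 33 tested genes 16 were lower and 1 was higher, a called share of 51.5% against 14.9% of all genes. Their median was -0.96, with 28 negative differences. In order of the pathway, the glucose transporter SLC2A1 had 115 and 133 in BCPAP and 31.6 and 41 in CAL-62, hexokinase HK2 had 26.6 and 26.2 in BCPAP and 4.56 and 4.63 in CAL-62 and phosphofructokinase PFKP had 158 and 172 in BCPAP and 80.8 and 88.2 in CAL-62. Phosphoglycerate kinase PGK1 had 408 and 576 in BCPAP and 152 and 138 in CAL-62 and enolase ENO1 had 1297 and 2118 in BCPAP and 427 and 469.9 in CAL-62. Lactate dehydrogenase LDHA had 976 and 1322 in BCPAP and 503 and 384 in CAL-62, and the lactate exporter SLC16A3 had 128 and 203 in BCPAP and 7.89 and 16.6 in CAL-62 (difference -3.69, SE 0.55, adjusted p = 0.00651). All 7 of these genes were called lower, with both CAL-62 values under both BCPAP values, as in every gene called lower.

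Not every step was called. GAPDH (3834 and 4645 in BCPAP and 3297 and 2541 in CAL-62), ALDOA (403 and 661 in BCPAP and 448 and 485 in CAL-62) and PKM2 (871 and 1295 in BCPAP and 859.8 and 810.4 in CAL-62), the symbol of pyruvate kinase in these tables, were not called, and GPI (0.31) and the monocarboxylate transporter SLC16A1 (0.46) had small positive differences. Several of these transcripts have processed pseudogenes that can take reads. Among HIF targets PDK1, which holds pyruvate out of the mitochondrion, had 12.3 and 17.1 in BCPAP and 1.74 and 2.37 in CAL-62, and the collagen prolyl hydroxylase P4HA2 had 46.7 and 35.7 in BCPAP and 5.18 and 3.09 in CAL-62 (difference -3.06, SE 0.28, adjusted p = 0.00106). BNIP3, P4HA1, ANGPTL4, NDRG1, ERO1L and the enolase ENO2 (-0.98) were lower as well. VEGFA, the vascular growth factor, was not called (39.97 and 38.4 in BCPAP and 11.8 and 27.8 in CAL-62). CA9, carbonic anhydrase IX, was listed for BCPAP (58.4 and 156) and not for CAL-62. ADM, a HIF target too, went the other way (0.276 and 1.87 in BCPAP and 22.4 and 44.5 in CAL-62), and DDIT4 differed between the CAL-62 libraries as given above.

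Without 1 DMSO library, 9, 8, 9 and 9 of the 33 genes were called, of which 8, 7, 7 and 8 were lower. The median of the 33 genes was -1.02 in CAL-62 replicate 1 and -0.83 in replicate 2 against the BCPAP mean. With ribosomal protein scaling 10 genes were lower and 1 higher, and the median lay 0.93 below that of all genes. The promoter of SLC16A3, the member with the largest negative difference, is shown as the 250 bases before its RefSeq start on GRCh38.p14, plus strand, chr17:82228792-82229041, with capitals for the core of the hypoxia response element, ACGTG.
SLC16A3: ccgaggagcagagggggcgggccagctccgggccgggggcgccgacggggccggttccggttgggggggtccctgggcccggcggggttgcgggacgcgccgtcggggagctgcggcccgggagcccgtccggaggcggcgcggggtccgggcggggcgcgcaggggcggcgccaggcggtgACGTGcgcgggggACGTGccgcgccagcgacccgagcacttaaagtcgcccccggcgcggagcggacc
It held the core at 2 places. The motif, sought on both strands (CACGT on the other), was in 22 of 57 windows of the tested list members (38.6%) and in 23% of the windows of all tested genes.

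Genes of amino acid synthesis and uptake, many of them driven by the stress factor ATF4, gave more higher than lower calls. Of 32 tested genes 8 were higher and 2 lower, 31.2% called against 14.9% of all genes, with a median of 0.93 and 26 positive differences. SLC7A5, the large neutral amino acid transporter, had 21.1 and 14.6 in BCPAP and 150.0 and 240.3 in CAL-62 (difference 3.36, SE 0.46, adjusted p = 0.00452), and its partner SLC3A2 had 39.1 and 24.9 in BCPAP and 80.8 and 190.4 in CAL-62. In proline synthesis PYCR1 had 9.18 and 11.5 in BCPAP and 36.4 and 50.3 in CAL-62, and in serine synthesis PSAT1 had 45.6 and 35.8 in BCPAP and 88.9 and 139 in CAL-62 and PSPH had 4.49 and 3.18 in BCPAP and 11.5 and 19 in CAL-62. PHGDH, the enzyme before them, was not called (76 and 68.8 in BCPAP and 43.8 and 102 in CAL-62). STC2, a secreted glycoprotein (149 and 202 in BCPAP and 9.87 and 55.6 in CAL-62), and VLDLR, a lipoprotein receptor (9.17 and 10.4 in BCPAP and 1.27 and 4.12 in CAL-62), were the lower genes.

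In this group the 2 CAL-62 libraries differed from each other. In 16 of its 32 genes replicate 2 was more than 2-fold above replicate 1, in 0 below, and the median against the BCPAP mean was 0.42 in replicate 1 and 1.34 in replicate 2. CHAC1, a glutathione-degrading ATF4 target, had 3.62 and 1.77 in BCPAP and 9.49 and 102 in CAL-62 and an adjusted p of 0.05, just under the threshold before rounding, a call lost in 10 of the 19 other settings, limma-voom and the 4 DMSO libraries alone among them. ASNS, asparagine synthetase (19.4 and 10.2 in BCPAP and 27.6 and 87.2 in CAL-62), DDIT3, the stress factor CHOP (7.99 and 5.89 in BCPAP and 8.85 and 48.3 in CAL-62), and ATF4 itself (100.5 and 98.7 in BCPAP and 120.4 and 224 in CAL-62) were not called. With 1 DMSO library left out, 1, 2, 11 and 3 genes were called. Without CAL-62 replicate 2 the 3 calls were 1 higher and 2 lower, and without CAL-62 replicate 1 all 11 were higher. SLC7A5 was called in every one of the 19 other settings.

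**Figure D2:**
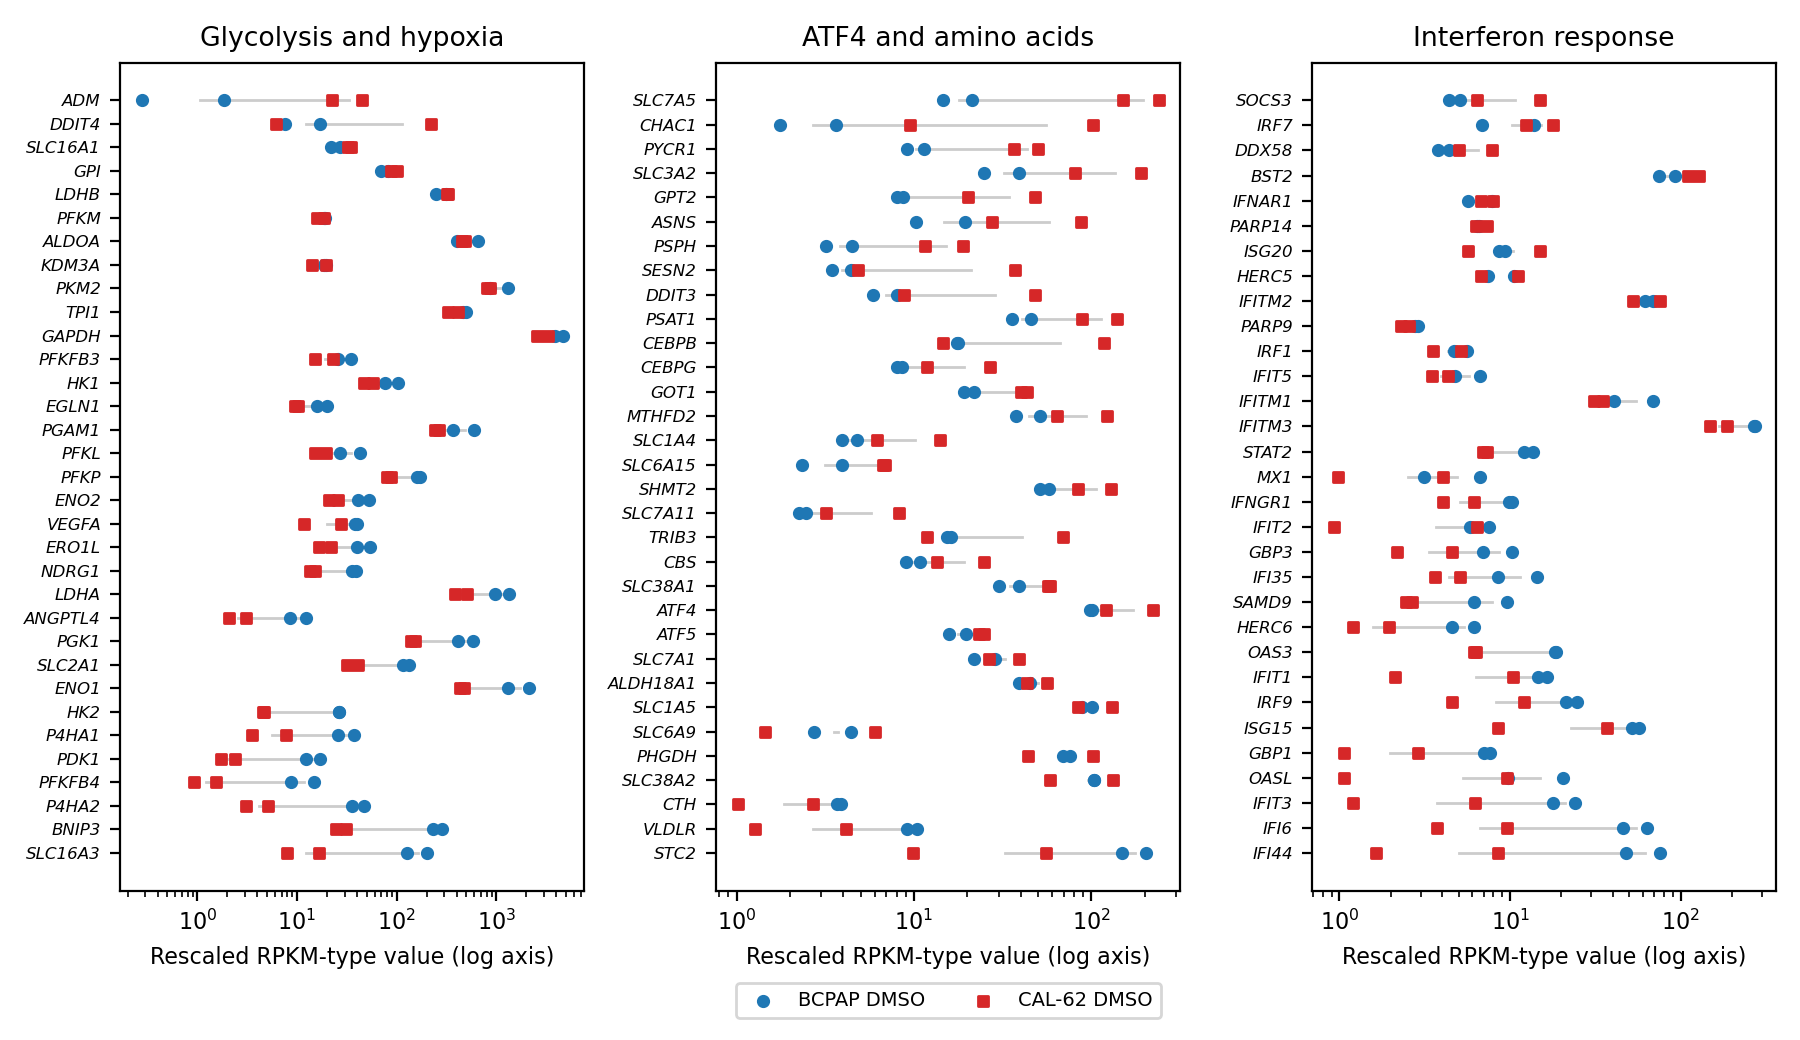
Rescaled RPKM-type values (log axis) of tested members of 3 gene lists, ordered by the difference, with BCPAP DMSO libraries as circles, CAL-62 DMSO libraries as squares and a grey line between the group means. In the ATF4 list the 2 CAL-62 squares are often far apart, while in the lower part of the glycolysis and hypoxia list they lie together and below BCPAP.

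The promoter of CHAC1 carries the element through which ATF4 acts with C/EBP factors, TGATGNAA, and is shown for that reason. It covers the 250 bases before the RefSeq start on GRCh38.p14, plus strand, chr15:40953221-40953470, with capitals for the match, which reads on the opposite strand (TTNCATCA).
CHAC1: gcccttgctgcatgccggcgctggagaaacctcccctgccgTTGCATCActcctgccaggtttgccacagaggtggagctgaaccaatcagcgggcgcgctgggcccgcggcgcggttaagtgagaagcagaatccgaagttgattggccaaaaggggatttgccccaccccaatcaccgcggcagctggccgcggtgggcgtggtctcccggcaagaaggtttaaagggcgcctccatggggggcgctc
The motif, sought on both strands, was in 5 of 43 windows of the tested list members (11.6%), those of ASNS, CEBPG, CHAC1, GOT1 and SLC1A5, and in 1.53% of all windows.

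Of 32 sterol and fatty acid synthesis genes 4 were called, 12.5% against 14.9% of all genes, with 4 higher, 0 lower (0 with limma-voom, 1 at an unadjusted p under 0.05) and a median of 0.62. FADS2, the Δ6 fatty acid desaturase, had 2.92 and 3.73 in BCPAP and 31.5 and 33.8 in CAL-62 (difference 2.96, SE 0.24, adjusted p = 0.00068). In the sterol branch FDFT1, squalene synthase (14.9 and 13.7 in BCPAP and 40.7 and 78.7 in CAL-62), SQLE, squalene epoxidase (11.6 and 9.12 in BCPAP and 26.4 and 39.4 in CAL-62), and NSDHL, a sterol dehydrogenase (17.6 and 13.9 in BCPAP and 32.8 and 39.2 in CAL-62), were higher. The median was 0.34 in CAL-62 replicate 1 and 0.72 in replicate 2. In fits without 1 DMSO library, 1, 1, 6 and 1 genes were called. Cells take up sterols from serum, and the lines were grown with different amounts of it, whose part was not tested.

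Antioxidant genes of the NRF2 program gave 5 higher and 1 lower call of 29, 20.7% against 14.9% of all genes. Their median was 0.21 (-0.01 relative to the chromosome medians). The higher genes were AKR1B1, an aldose reductase (38.6 and 55.8 in BCPAP and 101 and 197 in CAL-62), MGST1, a glutathione transferase (29.5 and 20.7 in BCPAP and 86.7 and 48.2 in CAL-62), ALDH1A3, a retinal dehydrogenase (10.4 and 9.49 in BCPAP and 27.9 and 23.3 in CAL-62), SRXN1, sulfiredoxin (1.01), and TXN, thioredoxin (0.88). The prototypic targets NQO1 (22.2 and 18.5 in BCPAP and 27.1 and 25.5 in CAL-62) and HMOX1 (13.1 and 5.01 in BCPAP and 8.7 and 10.7 in CAL-62) were not called, and UGDH, which makes glucuronic acid, was lower (23.8 and 21 in BCPAP and 7.96 and 5.72 in CAL-62). With any 1 DMSO library left out, 0 of the 29 genes was called. Of 25 ER folding genes 4 were called, 16% against 14.9% of all genes. The 2 higher genes were CRELD2 (0.89), induced by ER stress, and DERL3 (1.33), of ER degradation. SEL1L, a subunit of the ER degradation complex, was lower (19.8 and 18.6 in BCPAP and 4.79 and 4.18 in CAL-62), as was P4HB, protein disulfide isomerase (-1.11), and HSPA5, the ER chaperone BiP, was not called (229.6 and 166 in BCPAP and 189 and 124 in CAL-62).

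Of the genes for drug transport and drug metabolism, ABCC5, a nucleotide exporter, was higher in CAL-62 (4.29 and 2.75 in BCPAP and 12.2 and 11.4 in CAL-62). DPYD, which degrades fluorouracil, was lower (12.6 and 16.8 in BCPAP and 2.04 and 1.56 in CAL-62, difference -2.48, SE 0.28, adjusted p = 0.00236), and so was NT5E, the ectoenzyme CD73 (121 and 134 in BCPAP and 55.9 and 49 in CAL-62). CDA, cytidine deaminase, was listed for BCPAP (49.9 and 72.6) and not for CAL-62. The efflux pump ABCC1 was not called (12.5 and 15 in BCPAP and 17.4 and 16.3 in CAL-62), and ABCB1 had no value in either line.

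The kinase targeted in the treated arms of the study, CDK7 of the general factor TFIIH, was somewhat lower in CAL-62. Its values were 20.6 and 18.4 in BCPAP and 10.9 and 11.7 in CAL-62, a difference of -0.73 (SE 0.20, adjusted p = 0.0457), lost in 8 of 19 other settings. The median of all genes on its chromosome, 5, was -0.40. CCNK, the cyclin of CDK12 and CDK13, was lower at 43.9 and 48.7 in BCPAP and 12.3 and 15.4 in CAL-62 (difference -1.68, SE 0.20, adjusted p = 0.00276) and kept its call in all 19. CDK9, CDK12 and CDK13 were not called, at 0.32, 0.66 and 0.26. MYC had 21.5 and 19.6 in BCPAP and 47.9 and 165 in CAL-62, a difference of 2.07 (SE 0.63, adjusted p = 0.0628) that was not called, although it was in 8 of the 19 other settings. Without CAL-62 replicate 2 the MYC difference was 1.19 with an adjusted p of 0.296.

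Of 77 ribosomal protein genes 8 were called, 10.4% against 14.9% of all genes, with 8 lower and 0 higher (0 with limma-voom, 0 at an unadjusted p under 0.05), 56 negative differences and a median of -0.36, whose sign turned to 0.10 when they were themselves the scaling reference. RPL11, a large subunit protein that also binds MDM2, had 1652 and 1612 in BCPAP and 625 and 608 in CAL-62 (difference -1.40, SE 0.26, adjusted p = 0.0126), and RPL37 had 420.2 and 367 in BCPAP and 176 and 163 in CAL-62. With any 1 DMSO library left out, 0 of the 77 was called. Many of these genes have near-identical copies. All 13 mitochondrially encoded genes had positive differences, with a median of 0.46, and 0 was called (0 with limma-voom, 0 at an unadjusted p under 0.05). With the replicate block 0 was called over 8 libraries and 7 were higher over the 4 DMSO libraries. In both lines all 13 were lower in replicate 2, by medians of -0.92 in BCPAP and -0.89 in CAL-62, as in CYTB, cytochrome b (2335 and 1324 in BCPAP and 3569 and 1925 in CAL-62). Without BCPAP replicate 2 or CAL-62 replicate 1 the median difference between the lines turned to -0.18 and -0.19.

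**Figure D3:**
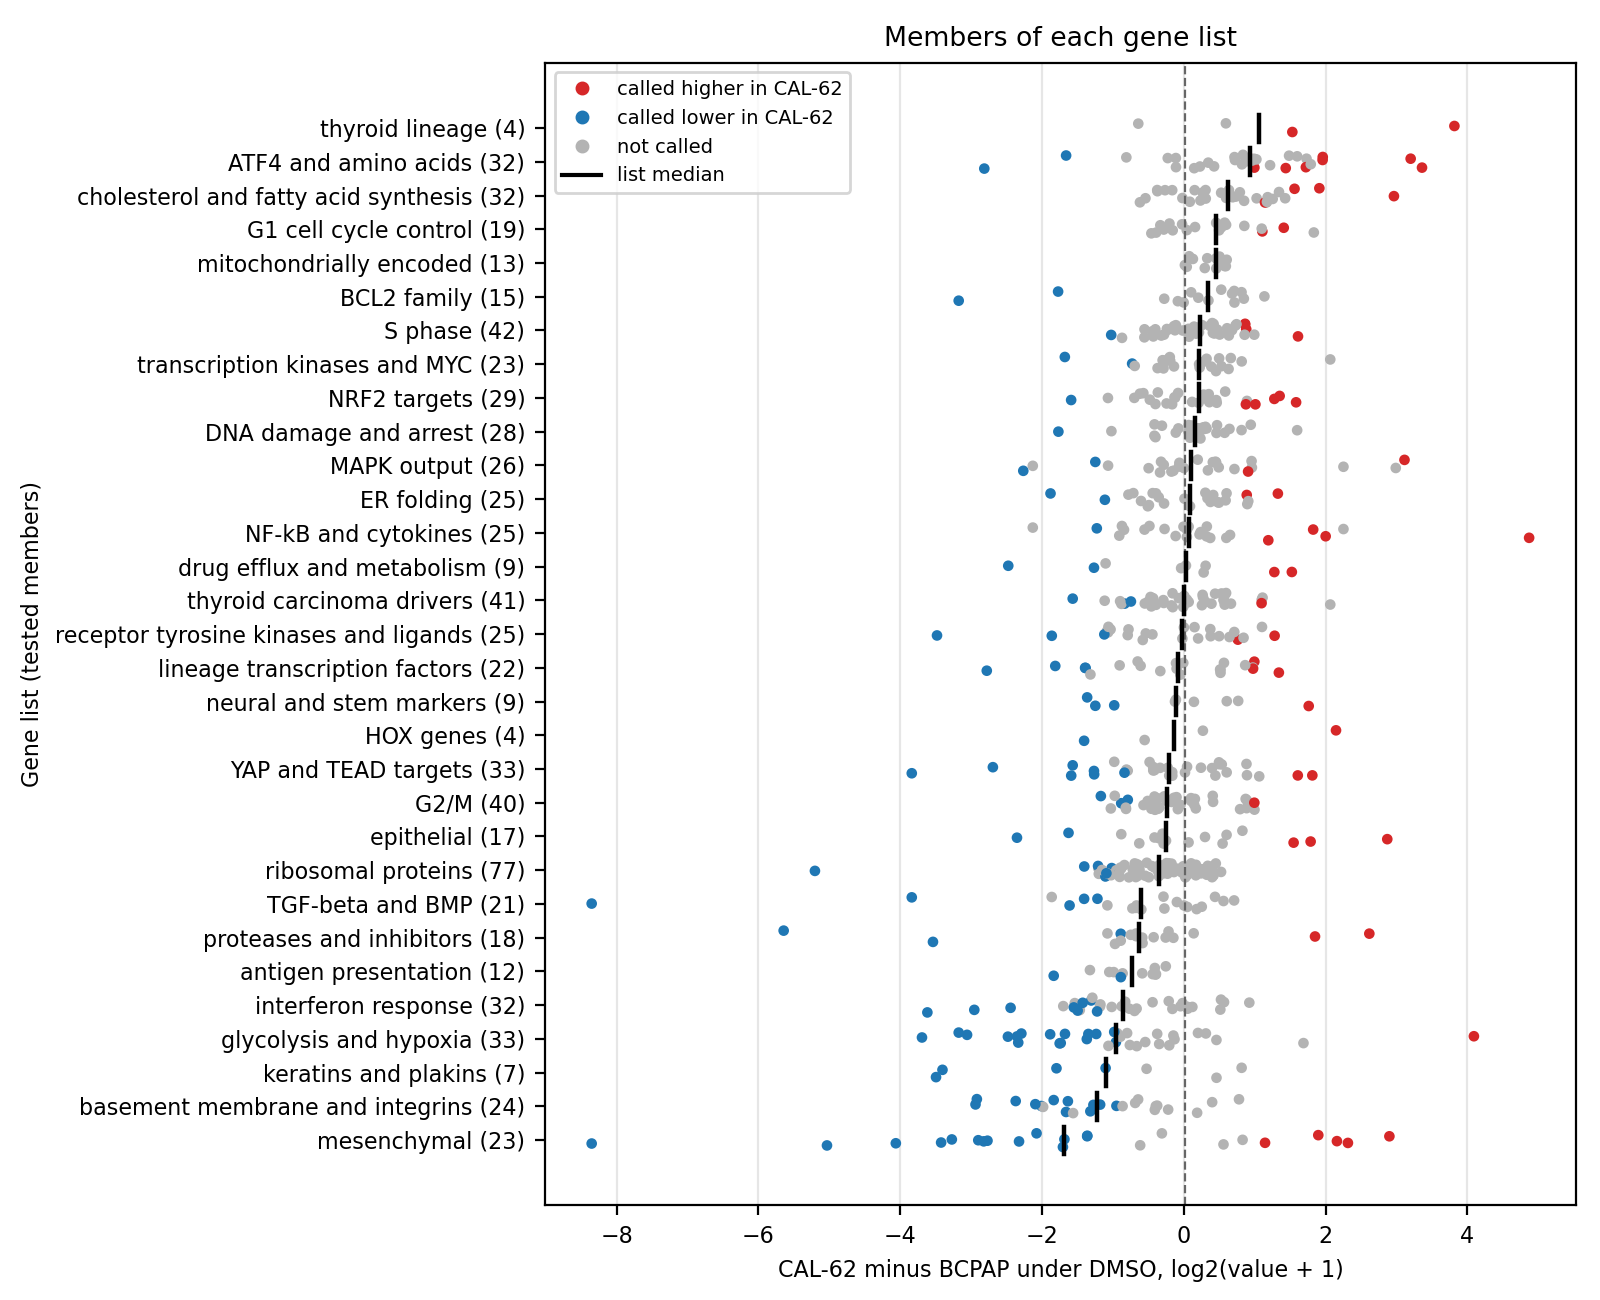
Difference CAL-62 minus BCPAP under DMSO, in log2(value + 1), for every tested member of each list with at least 4 tested genes (number in brackets), with called genes in colour, other genes in grey and a bar at the list median. The dashed line is the median of all genes, 0.02, and the mesenchymal, basement membrane and glycolysis lists hold the most calls to its left.

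The differences varied with the position of the gene. Of the 10698 genes 10253 (95.8%) were placed on a chromosome through RefSeq symbols, and all chromosome positions here are gene order only. The chromosome medians ran from -0.40 on chromosomes 5 and 1, through -0.31 on chromosome 4 and -0.23 on chromosome 14, to 0.48 on chromosome 16, 0.56 on chromosome 9 and 0.58 on chromosome 22. On chromosome 1 199 of 1045 genes were lower (19.0%) and 16 higher (1.53%). On chromosome 9 84 of 421 genes were higher (20.0%) and 11 lower (2.61%), and on chromosome 22 44 of 240 were higher (18.3%) and 3 lower (1.25%). The named genes lie on many chromosomes, but TGFBI, BASP1, LOX and SPOCK1 all lie on chromosome 5, where the median was -0.40. Relative to the chromosome median some list medians were similar, at -1.71 for mesenchymal genes, -0.98 for glycolysis and hypoxia, 0.90 for ATF4 and -0.79 for interferon. Others moved more, from -1.23 to -0.98 for basement membrane and integrins, from -0.63 to -0.41 for proteases and inhibitors and from 0.07 to 0.21 for NF-κB and cytokines. A chromosome median does not take out shorter runs of genes, and the part of position was not tested. The medians of 5 lists near 0 changed sign, from -0.25 to 0.10 for epithelial genes, from -0.08 to 0.10 for lineage transcription factors, from 0.21 to -0.01 for NRF2 targets, from 0.09 to -0.02 for ER folding and from 0.03 to -0.14 for drug transport and metabolism.

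**Figure D4:**
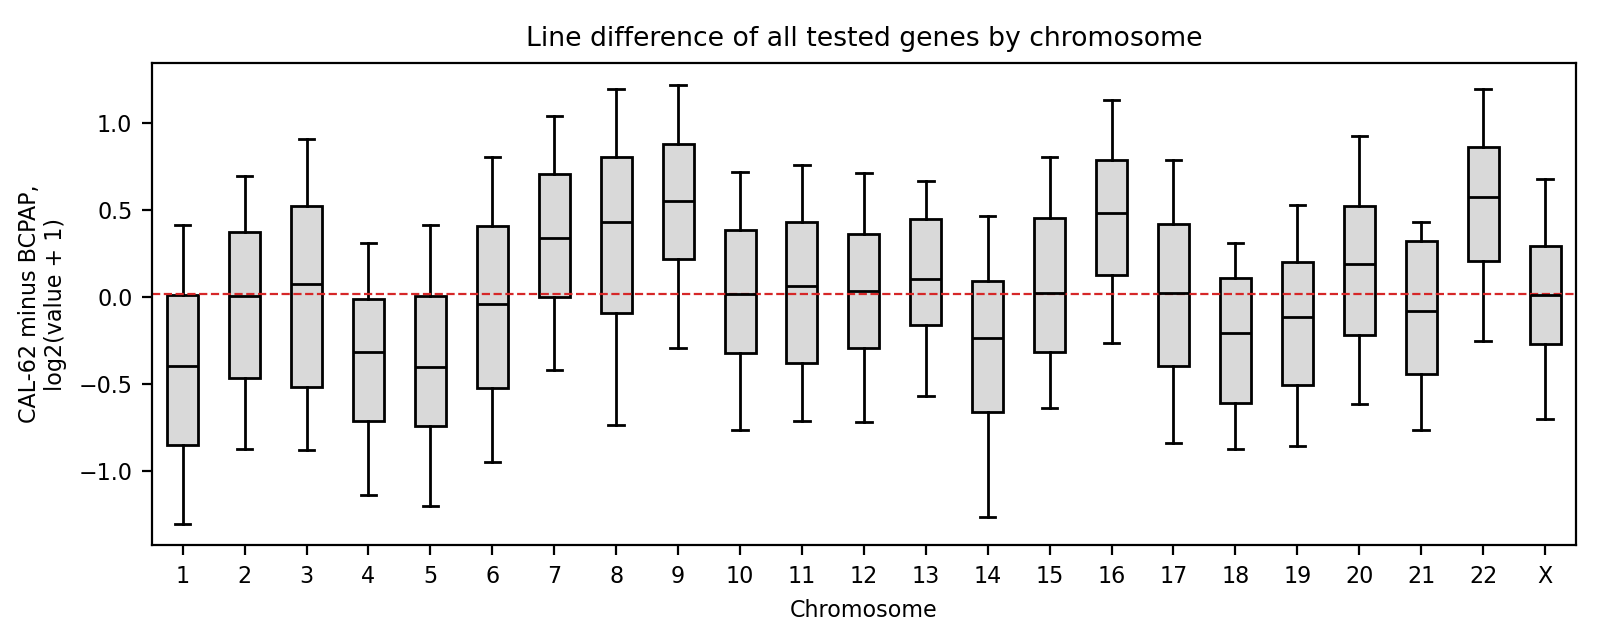
Difference CAL-62 minus BCPAP, in log2(value + 1), of the placed genes by chromosome, with boxes for the quartiles, a line at the median, whiskers for the 10th and 90th percentiles and a dashed line at the median of all genes. Chromosomes 1, 4 and 5 sit below it and chromosomes 9, 16 and 22 above it.

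Runs of neighbouring genes went further than whole chromosomes. Among 9677 windows of 25 consecutive genes, 90% of the medians lay between -0.66 and 0.60. The lowest window, from TRIP11 to CCDC85C on chromosome 14, had a median of -1.35, with 25 of 25 differences negative and 20 genes called lower. It holds CCNK, described above, and DICER1, the nuclease of microRNA maturation (11.1 and 8.83 in BCPAP and 4.6 and 3.51 in CAL-62), which was not called. Next came HHLA3 to CTBS on chromosome 1 (median -1.26, 25 of 25 negative, 14 called), which holds IFI44, and ECE1 to CLIC4 on the same chromosome (median -1.02, 21 of 25 negative, 12 called lower), which holds RPL11. The highest windows all had medians of 0.91. They ran from MRPS11 to HDDC3 on chromosome 15, from N4BP1 to CPNE2 on chromosome 16 and from VCP to GRHPR on chromosome 9, with 8, 9 and 10 genes called higher and 0 lower.

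**Figure D5:**
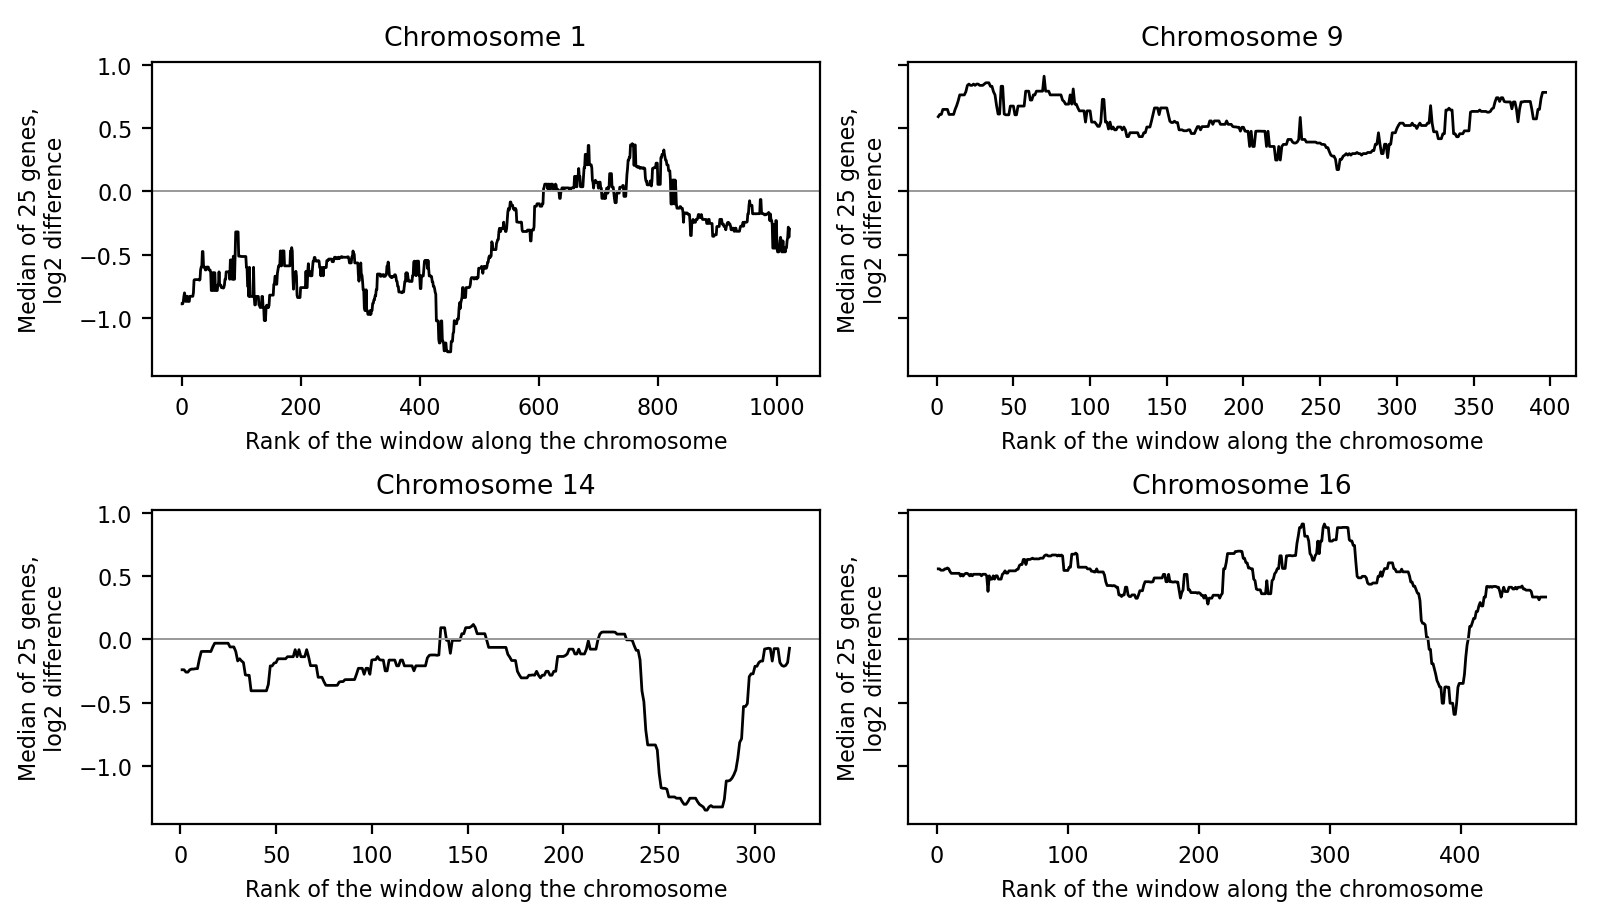
Median difference of 25 consecutive placed genes, in log2(value + 1), along chromosomes 1, 9, 14 and 16, plotted by rank of the window. On chromosome 14, where the median of all placed genes was -0.23, the curve drops to -1.35 in 1 stretch, while on chromosome 9 it stays above 0 throughout.

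The window on chromosome 16 holds metallothioneins, small proteins that bind zinc and copper, which were described further after their values were seen. MT2A had 560.5 and 652 in BCPAP and 6859.5 and 9620.1 in CAL-62, a difference of 3.75 (SE 0.40, adjusted p = 0.00197). MT1E had 50.9 and 53.4 in BCPAP and 630.0 and 722 in CAL-62, MT1G had 13.9 and 13.1 in BCPAP and 209 and 197 in CAL-62 and MT1X had 22.3 and 13.4 in BCPAP and 79.1 and 97.8 in CAL-62, all called higher. MT1L (248 and 244) and MT1M (5.97 and 9.05) were listed for CAL-62, and MT1A (2.4 and 1.12) and MT1F (1.7 and 1.78) for BCPAP. These differences of 2.28 to 3.82 exceed the window median of 0.91. The members are close in sequence, so that reads may have been shared among them, and the metal content of the 2 media was not tested. TPM2, the largest difference above BCPAP, lies in the highest window of chromosome 9 and exceeded its median likewise.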

How the data were processed

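RNA sequencing values of 8 libraries were used, 2 for each of 4 groups, all as deposited by the authors. The authors deposited RPKM-type values per gene, in 1 table per library. Per the submitters' processing notes the reads were placed on hg19, and Bowtie2 and DESeq2 are named there without versions. For the annotation and the use of strand, not given in the sources used here, nothing is assumed. Whole reads were recovered from the low steps of the values for all 10698 genes (100%, tolerance 0.02 reads), and gave the depths of the libraries.

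The values of all 8 libraries were divided by median-of-ratios factors computed over the shared genes. log2(value + 1) was fitted with limma 3.58.1 in R 4.3.3, with 4 group means and a mean-variance trend, and the 8 libraries shared 1 estimate of the spread. p-values were two-sided and adjusted by Benjamini-Hochberg over all tested genes. Summaries were made with pandas 2.3.3 in Python 3.11.15. The fit was tested on simulated data first.

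The genes named were, per direction, the 10 largest called differences whose mean value reached 5 and whose groups did not overlap, up to 3 called members per direction of each of 34 gene lists, and 9 genes fixed by name (among them PAX8, MYC, CDK7, BRAF, NF2, CDKN2A, VIM and CDH1). Small RNA and uncharacterised features were left out of the first set. Further list members are given to account for the lists, and some genes that entered the fits and counts are not reported here by name. The members and lists were chosen with earlier results of these data known. The lists held 1094 different genes, 724 of which were tested. Promoter windows are the 250 bases before each RefSeq transcript start on GRCh38.p14, matched by symbol. Each promoter shown is that of the called list member with the largest difference whose window held the motif. For the sterol and fatty acid list the sterol element TCACNCCA was in 3 of 36 windows (8.33%) and in 2.81% of all windows. It was in 0 of 3 windows of called members, so no promoter is shown. Alternatives concerned the scaling, the pseudocount, a filter on low values, the libraries in the fit, a replicate block and limma-voom on the recovered reads.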

Additional observations from a re-analysis of the deposited data

How the results depend on the processing

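Of 117 named called genes none changed direction in any of the 19 alternatives, where the filter on low values kept 108 of them and left out the others. With ribosomal protein scaling 1153 genes were higher and 270 lower, of which 1088 and 259 by at least 2-fold. The other scalings, pseudocounts, the filter on low values, limma-voom (799 higher, 932 lower) and the fit of the 4 DMSO libraries alone (1048 higher, 1170 lower) gave counts within 1.5 times the main ones. Leaving out 1 library gave 90 to 963 higher and 185 to 1059 lower genes, and by at least 2-fold 90 to 587 and 185 to 732. The lowest counts came without a DMSO library of BCPAP, where the lone remaining library is assumed to vary like the other groups. With the replicate number as a block, 1890 genes were higher and 1961 lower over 8 libraries, and 2364 and 2331 over the 4 DMSO libraries, and all 1598 calls were kept in both. The labels do not say that a number marks a shared batch, and deviations of same-numbered libraries correlated at 0.461 between the DMSO groups (0.432 to 0.778 over all pairs of groups), so that the pairing is a hint from the data. The chromosome-relative medians were added after the data were seen. Depth limits genes near a value of 1, where few reads stand behind a value.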

Other observations

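Genes that are silent in most adult epithelia were listed for one line and not for the other. The cancer-testis genes MAGEA3 (44 and 34.2), MAGEA6 (36.4 and 32.2) and CTAG2 (90.9 and 178), normally expressed in germ cells, were listed for BCPAP. The first 2 are near-identical copies, so their reads cannot be assigned with certainty. IGF2BP1, an oncofetal RNA-binding protein, was listed for BCPAP as well (19.8 and 20.6). TEX15 (7.37 and 4.66) and SYCP2 (20.2 and 12.4), genes of meiosis, were listed for CAL-62. Of the neural filament genes NES (44.8 and 30.5) and INA (51.5 and 29.4) were listed for CAL-62, and GAP43, a growth cone protein, for BCPAP (1.19 and 1.31). UCHL1, a ubiquitin hydrolase of neurons, was listed for both and higher in CAL-62, at 103 and 102 in BCPAP and 374 and 327 in CAL-62 (difference 1.76, SE 0.23, adjusted p = 0.00392). Of 48 neural, stem and germline genes 9 were tested, 11 had a value in BCPAP alone and 5 in CAL-62 alone. Over all genes these last 2 numbers were 1202 and 815. Of the 9 tested genes 4 were called, 44.4% against 14.9% of all genes, and UCHL1 was the 1 called higher. The 3 called lower were CD44 (-1.36), HMGA2 (-1.25) and ENO2 (-0.98), the last a neural marker like UCHL1.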
